A study of Drosophila melanogaster with 4 samples.

Results

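Thoracic muscle RNA of uninduced Act88FGS>UAS-MEF2 RNAi flies was compared with that of uninduced Act88FGS>w1118 flies. The comparison was chosen by its labels alone, as the log2 value of the MEF2 RNAi library without RU486 minus that of the w1118 library without RU486, and it covers all 13012 genes of the table. It uses 2 of the 4 libraries of the series, and the other 2 are the same genotypes fed RU486. The series was made to ask how MEF2 in muscle and diet act together on lipid droplets and lifespan.

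The MEF2 RNAi flies carried w1118, 1 copy of the Act88FGS driver and 1 copy of UAS-MEF2 RNAi, and the w1118 flies carried w1118 and 1 copy of Act88FGS without the RNAi transgene. Every group was mated females, fed the high calorie diet and labelled as 10 days of age, and the uninduced flies received ethanol, the solvent of RU486. Act88FGS puts GeneSwitch, a GAL4 protein that needs RU486 to act, under the promoter of a flight muscle actin gene, so without the drug the RNAi is meant to be off. Each library pooled 8 thoraces, and there is 1 library per group. No p-value, interval or replicate error can be given, and genotype, insertion site, strain background, culture and library cannot be told apart. A thorax also holds fat body, nerve, gut and blood cells, so fewer cells of a type and less RNA per cell cannot be told apart either.

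MEF2 is a transcription factor that directs muscle differentiation and in the adult fly also acts in the fat body, on immune and storage genes. Antimicrobial peptides are short secreted proteins made when bacterial or fungal molecules activate the Imd and Toll pathways. They are made chiefly in the fat body and in gut and other epithelia.

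Without RU486, MEF2 RNAi thoraces stood out by white and by antimicrobial peptide genes. Single genes of stress, storage and detoxification were also higher, among them Hsp70Bb, TotA, TotC, Lsp2, Cyp4e3 and Cyp6a2. Most members of their lists did not pass the threshold, and genes of muscle structure did not pass it relative to the median of all genes. Relative to the median of all genes, 32 genes were at least 1.5-fold higher in MEF2 RNAi (0.246% of 13012) and 16 were at 0.65-fold or less (0.123%). The 1.5-fold and 0.65-fold limits are those the study drew its heat maps with. There they were set on MEF2 RNAi with RU486 against without it, leaving out genes that changed likewise in controls. Of the 32 higher genes, 8 encode antimicrobial peptides, 2 are Turandot genes and 1 is pirk, an inhibitor of the Imd pathway. With RU486, 9 of the 35 listed antimicrobial peptide genes passed upward relative to the median, against 1.34% of all genes. As deposited, the median difference of the list with RU486 was -0.16, beside -0.36 for all genes.

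The scale had to be set first, because the deposited values of the uninduced libraries are offset from each other. The values are log2 numbers centred gene by gene, so that the 4 values of a gene sum to 0 and only differences between libraries can be read. The library median was 0.19 in uninduced MEF2 RNAi and -0.18 in uninduced w1118, a difference of 0.37 (1.29-fold). As deposited, 94.5% of all genes were above 0 in the uninduced genotype difference, 781 were at least 1.5-fold higher (6%) and 1 was at 0.65-fold or less (0.00769%). Differences are therefore given relative to the difference of the library medians, and the deposited difference stands beside them where it matters.

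The genes did not shift as 1 body. The differences as deposited formed a peak of 1463 genes between 0 and 0.05 and a higher one of 1686 genes between 0.40 and 0.45. In 2098 genes (16.1%) all 4 values lay within 0.1 of 0, and their median difference was 0.0084 as deposited, or -0.36 on the relative scale. The other genes had a median difference of 0.42 as deposited. A gene at 0 in both libraries thus counts as -0.37 on the relative scale without any measured difference. None of the 48 genes past a threshold was of that kind, and none shared its 4 values with another gene, as 1963 genes did.

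**Figure D1:**
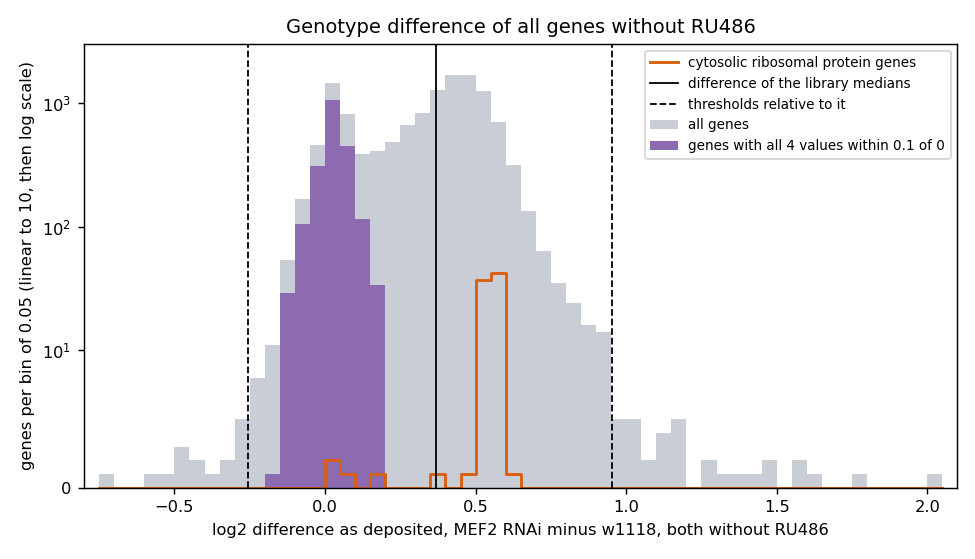
Number of genes per bin of 0.05 (vertical axis, linear to 10 and log above) by log2 difference as deposited, MEF2 RNAi minus w1118, both without RU486 (horizontal axis). Grey bars are all 13012 genes, purple bars the 2098 genes with all 4 values within 0.1 of 0, and the orange line the 86 cytosolic ribosomal protein genes, whose median is 0.55. The solid line marks the difference of the library medians at 0.37 and the dashed lines the thresholds relative to it.

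Mef2 itself, the target of the RNAi, did not pass the threshold without RU486 or with it. It stood at 0.25 in uninduced MEF2 RNAi and -0.098 in uninduced w1118, and with RU486 at -0.38 in MEF2 RNAi and 0.22 in w1118. The uninduced difference was 0.35 as deposited and -0.018 relative to the median, a fold of 0.988. In the RU486-fed pair the difference was -0.60 as deposited, just short of the threshold of -0.62. Relative to the median it was -0.26, a fold of 0.838. In this comparison of genotypes the threshold thus does not mark the induced RNAi either. The study set its limit on another comparison, MEF2 RNAi with RU486 against without it. Mef2 lies on chromosome arm 2R, 9913496 to 9958858 on the minus strand in the Ensembl annotation of BDGP6. The build the authors used is not given in the sources used here, so coordinates below only place the genes.

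The gene that differed most was white (w), which encodes an ABC transporter subunit that carries eye pigment precursors and which marks many fly transgenes. It stood at 1.22 in uninduced MEF2 RNAi and -0.78 in uninduced w1118, and at -0.055 in RU486-fed MEF2 RNAi and -0.38 in RU486-fed w1118. The uninduced difference was 2.00 as deposited and 1.64 relative to the median (3.11-fold), against a relative 0.67 in the RU486-fed pair. White is on arm X (2790599 to 2796466, minus strand), inside the annotated span of kirre. Both genotypes carry the w1118 allele, a deletion in this gene.

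Other markers of transgenes and strains differed less. Vermilion (v), the pigment enzyme gene that marks many RNAi insertions, stood at 0.25 in uninduced MEF2 RNAi and -0.31 in uninduced w1118, a relative difference of 0.19. The yellow gene (y) had all 4 values within 0.1 of 0, with 0.042 in uninduced MEF2 RNAi and 0.028 in uninduced w1118. For sevenless (sev), which encodes a receptor of photoreceptor fate, the relative difference was 0.078. Of the 5 eye pigment genes w, v, bw, st and cn, white alone passed, and the other 4 lay between -0.37 and 0.19. The lowest, cn, had a deposited difference of -0.0011.

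Of the 35 gene lists 9 held a called gene, and antimicrobial peptides held the most. Of 35 members measured, 8 were past the threshold upward and 0 downward, against 0.246% and 0.123% of all genes. Over its members the median difference was 0.25 relative to all genes, beside 0.013 for the whole table, and 0.62 as deposited. Relative to ribosomal protein genes 5 passed, without Listericin, Drsl4 and Mtk, and the median was 0.070. This list was written with earlier results of these libraries known, so its count is a description. In 24 of the 35 the uninduced MEF2 RNAi library held the highest of the 4 values and in 32 the uninduced w1118 library held the lowest, against 49.3% and 47.4% of all genes. With RU486, 9 of the 35 passed upward and 0 downward, against 1.34% and 0.423% of all genes. The median of the list there was 0.18 relative to all genes and -0.16 as deposited, beside -0.36 as deposited for all genes. CecA1 (0.80), CecA2 (0.61) and DptA (0.75) passed only with RU486, and Drsl4 and Mtk only without it.

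Drosocin (Dro), an Imd-induced peptide active on Gram-negative bacteria, led the group. It stood at 0.95 in uninduced MEF2 RNAi and -0.64 in uninduced w1118, with 0.11 in RU486-fed MEF2 RNAi and -0.42 in RU486-fed w1118, between them. Its relative difference was 1.22 (2.33-fold) without RU486 and 0.88 with it.

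AttA, AttB and AttC, which encode larger glycine-rich peptides of the same pathway, passed as well. AttA stood at 0.81 in uninduced MEF2 RNAi and -0.66 in uninduced w1118, a relative difference of 1.11. AttC showed the same pair of values to this precision, with a relative difference of 1.10. For AttB the values were 0.70 in uninduced MEF2 RNAi and -0.65 in uninduced w1118, a relative difference of 0.98. AttA and AttB are near-identical neighbours, so reads of one can be assigned to the other and the 2 do not count as separate measurements. AttD, the intracellular attacin, did not pass at 0.38.

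Defensin (Def), a peptide aimed at Gram-positive bacteria, stood at 0.66 in uninduced MEF2 RNAi and -0.61 in uninduced w1118. Its relative difference was 0.90 (1.86-fold) without RU486 and 1.22 with it. Listericin stood at 0.58 in uninduced MEF2 RNAi and -0.53 in uninduced w1118, a relative difference of 0.74. Both peptides, like drosocin and the 3 attacins, had their highest value in the uninduced MEF2 RNAi library and their lowest in the uninduced w1118 library.

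Drsl4 and Mtk lay close to the threshold of 0.58. Drsl4, of the drosomycin family, had 0.63 in uninduced MEF2 RNAi and -0.39 in uninduced w1118, a relative difference of 0.65. Mtk, the antifungal metchnikowin, had 0.50 in uninduced MEF2 RNAi and -0.46 in uninduced w1118, a relative difference of 0.60. Just outside stood the diptericin DptB, with 0.52 in uninduced MEF2 RNAi, -0.43 in uninduced w1118 and a relative difference of 0.577. The cecropin CecC followed at 0.52, Drsl5 at 0.45 and DptA at 0.39.

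None of the 12 Bomanin genes, short peptides induced by Toll, passed the threshold, and they ran from -0.10 to 0.34 with a median of 0.081. Drs, the antifungal drosomycin that serves as the usual Toll readout, was at 0.25, and its relative Drsl5 at 0.45. At the bottom of the list, edin and CecB had all 4 values within 0.1 of 0, and Drsl2 was lowest at -0.36, with a deposited difference of 0.0036. The families were split after their values were seen, and the difference between them was not tested.

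**Figure D2:**
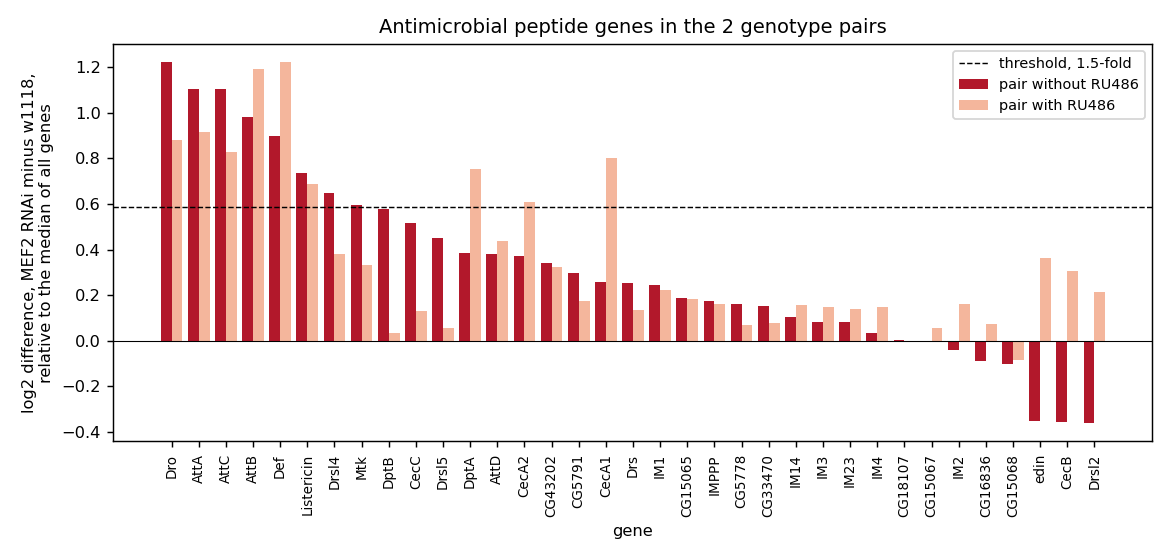
Log2 difference, MEF2 RNAi minus w1118, relative to the median of all genes (vertical axis), for the 35 antimicrobial peptide genes (horizontal axis, ordered by the pair without RU486). Dark bars are the pair without RU486 and light bars the pair with RU486, 1 library a side, and the dashed line is the 1.5-fold threshold. The first 8 genes, Dro to Mtk, pass it without RU486.

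Genes that sense microbes and relay the signal moved little beside the peptides. Of 45 members, 1 passed upward and 0 downward, against 0.246% and 0.123% of all genes. The list median was 0.14 relative to all genes (0.51 as deposited). The one that passed was pirk, induced by the Imd pathway and acting to shut it down, with 0.37 in uninduced MEF2 RNAi, -0.59 in uninduced w1118 and a relative difference of 0.60. It did not pass relative to ribosomal protein genes, at 0.41, or relative to genes not near 0, at 0.55. Next in order and below the threshold were PGRP-SB1, an amidase that cleaves peptidoglycan, at 0.47 and PGRP-LB, another such amidase and Imd target, at 0.40. Rel, the NF-kappaB factor of the Imd pathway, was at 0.33, whereas imd was at 0.085 and Dif, a Toll pathway factor, at 0.081.

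Turandot proteins are secreted in response to heat, wounding and infection, in part through JAK/STAT. In this list of 14 members, 2 passed upward and 0 downward, against 0.246% and 0.123% of all genes. The list median was 0.086 relative to all genes (0.45 as deposited). Relative to ribosomal protein genes 0 passed, and the median was -0.096. TotC stood at 0.59 in uninduced MEF2 RNAi and -0.42 in uninduced w1118, a relative difference of 0.65. TotA stood at 0.54 in uninduced MEF2 RNAi and -0.47 in uninduced w1118, a relative difference of 0.64. TotM followed at 0.44 below the threshold, and TotB had all 4 values within 0.1 of 0. The pathway genes hop, dome and Stat92E lay between 0.070 and 0.088.

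Of 15 fat body storage genes, 1 passed upward and 0 downward, against 0.246% and 0.123% of all genes. The list median was 0.22 (0.59 as deposited and 0.039 relative to ribosomal protein genes). In 14 of the 15 the uninduced MEF2 RNAi library held the highest value, against 49.3% of all genes. Lsp2, a larval serum storage protein, stood at 0.79 in uninduced MEF2 RNAi and -0.36 in uninduced w1118, a relative difference of 0.78. Antisense RNA CR11538 overlaps Lsp2 and had nearly its values, 0.80 in uninduced MEF2 RNAi and -0.37 in uninduced w1118. The library kit keeps strand, but whether the counting used it is not given in the sources used here, so the 2 cannot be told apart. Below the threshold, Lsp1beta was at 0.41 and the 3 yolk protein genes lay between 0.28 and 0.36. The fat body markers fixed for a check of cell content, 8 in number, had a median of 0.26, beside -0.0078 for 10 flight muscle markers, 0.12 for 7 hemocyte markers and -0.20 for 8 midgut markers. The part of fat body content in the immune and storage differences was not tested.

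Of the heat shock and chaperone genes, 1 of 25 passed upward and 0 downward, against 0.246% and 0.123% of all genes. The list median was 0.016 (0.38 as deposited). Hsp70Bb, a stress-induced chaperone, stood at 0.63 in uninduced MEF2 RNAi and -1.0 in uninduced w1118, and at 0.25 in RU486-fed MEF2 RNAi and 0.12 in RU486-fed w1118. Its relative difference was 1.26 (2.40-fold), whereas the other 5 Hsp70 copies lay between -0.31 and 0.38. The 6 copies are nearly identical in sequence, so the split of reads among them is uncertain and the value of 1 copy alone is not firm.

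Detoxification and metabolic genes supplied single members. Cyp4e3, a cytochrome P450, stood at 0.51 in uninduced MEF2 RNAi and -0.64 in uninduced w1118, a relative difference of 0.79. Cyp6a2, a P450 induced by xenobiotics, stood at 0.53 in uninduced MEF2 RNAi and -0.60 in uninduced w1118, a relative difference of 0.76. Of 86 P450 genes these 2 passed upward and 1 downward, Cyp6a17, against 0.246% and 0.123% of all genes. The list median was 0.021. Relative to ribosomal protein genes Cyp6a2 did not pass, at 0.577, and on that scale 1 P450 gene passed upward and 6 downward. None of 35 glutathione S-transferase genes and none of 17 UDP-glucuronosyltransferase genes passed.

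MtnA, a metallothionein that binds copper, stood at 0.81 in uninduced MEF2 RNAi and -0.38 in uninduced w1118, a relative difference of 0.83. The other 4 metallothionein genes lay between -0.36 and -0.035. AsnS, asparagine synthetase, was named after its values were seen. It had 0.60 in uninduced MEF2 RNAi and -0.43 in uninduced w1118, a relative difference of 0.66, and did not pass relative to ribosomal protein genes.

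GluRIIC, a subunit that every glutamate receptor of the fly neuromuscular junction needs, stood at 0.73 in uninduced MEF2 RNAi and -0.63 in uninduced w1118, with 0.22 in RU486-fed MEF2 RNAi and -0.32 in RU486-fed w1118. Its relative difference was 0.99 (1.99-fold) without RU486 and 0.89 with it. Its partner subunits GluRIIA, GluRIIB, GluRIID and GluRIIE lay between -0.41 and -0.047, so GluRIIC differed where the other subunits of its receptor did not pass. The lowest, GluRIIB, had a deposited difference of -0.047.

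Several leading genes have only a number for a name and no annotated role in the sources used here. CG3397 stood at 0.84 in uninduced MEF2 RNAi and -0.94 in uninduced w1118, a relative difference of 1.41 (2.67-fold). CG34227 stood at 0.88 in uninduced MEF2 RNAi and -0.68 in uninduced w1118, a relative difference of 1.19. CG3348 had 0.84 in uninduced MEF2 RNAi and -0.57 in uninduced w1118, a relative difference of 1.04. Both values of each gene were the extremes of its 4 libraries. CG4757 and CG10814 followed with relative differences of 0.89 and 0.82.

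Across the 32 higher genes, the uninduced MEF2 RNAi library held the highest value in all 32 and the uninduced w1118 library the lowest in 31, the exception being the noncoding RNA CR31781. These genes were picked by the difference between the same 2 libraries, so this describes them and supports nothing. Relative to the ribosomal protein genes described below, 19 of the 32 stayed past the threshold and 13 did not. Of the 16 lower genes, 1, CG3964, passed the 0.65-fold threshold as deposited.

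**Figure D3:**
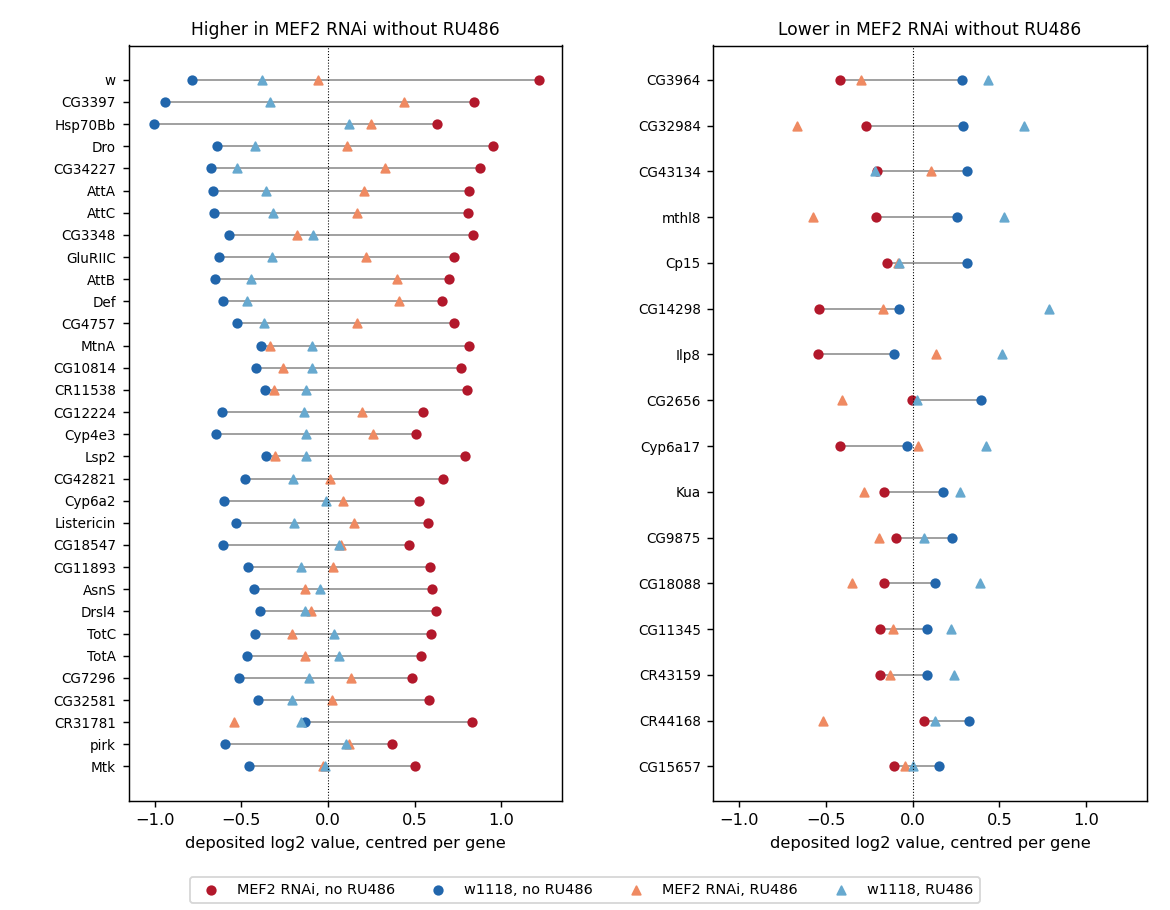
Deposited log2 values, centred per gene (horizontal axis), of the 32 higher genes (left) and the 16 lower genes (right), 1 row per gene. Red and blue circles are MEF2 RNAi and w1118 without RU486, joined by a grey line, and pale red and pale blue triangles are MEF2 RNAi and w1118 with RU486. Among the higher genes the red circle lies right of every other symbol, while among the lower genes the circles are the extremes of only some rows.

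CG3964, whose current symbol is TTLL4B, a name of the tubulin tyrosine ligase-like family, was the lowest gene in MEF2 RNAi. It stood at -0.42 in uninduced MEF2 RNAi and 0.28 in uninduced w1118, with -0.30 in RU486-fed MEF2 RNAi and 0.44 in RU486-fed w1118. Its relative difference was -1.07 (0.476-fold) and its deposited difference -0.70. Both MEF2 RNAi libraries lay below both w1118 libraries. In the RU486-fed pair the relative difference of -0.39 did not pass, while the deposited difference of -0.74 did.

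Relative to the median of all genes, CG32984 and mthl8 passed downward in both genotype pairs. CG32984 stood at -0.27 in uninduced MEF2 RNAi and 0.29 in uninduced w1118, and at -0.67 in RU486-fed MEF2 RNAi and 0.65 in RU486-fed w1118. The gene mthl8, of the methuselah-like receptor family, stood at -0.21 in uninduced MEF2 RNAi and 0.26 in uninduced w1118, and at -0.57 in RU486-fed MEF2 RNAi and 0.53 in RU486-fed w1118. The relative difference of CG32984 was -0.93 without RU486 and -0.97 with it, and that of mthl8 was -0.83 without RU486 and -0.75 with it. As deposited, the difference without RU486 was -0.56 for CG32984 and -0.47 for mthl8, short of the threshold.

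The lists held 3 further lower genes. Ilp8, a relaxin-like peptide that delays maturation in larvae and acts in the adult ovary, stood at -0.55 in uninduced MEF2 RNAi and -0.11 in uninduced w1118, a relative difference of -0.80. Cyp6a17 stood at -0.42 in uninduced MEF2 RNAi and -0.034 in uninduced w1118, a relative difference of -0.75. Cp15, a chorion protein of the eggshell, stood at -0.15 in uninduced MEF2 RNAi and 0.32 in uninduced w1118, a relative difference of -0.83. Cp15 was the 1 of 20 eggshell genes to pass, against 0.123% of all genes downward. The other chorion genes ran from -0.37 to -0.19, and the eggshell list's median of -0.36 was 0.011 as deposited.

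Among the lower genes outside the naming rule, chosen after their values were seen, CG43134 stood apart by its direction. It stood at -0.21 in uninduced MEF2 RNAi and 0.32 in uninduced w1118, but at 0.11 in RU486-fed MEF2 RNAi and -0.22 in RU486-fed w1118. The relative difference was -0.89 without RU486 and 0.67 with it, past the threshold both times in opposite directions. As deposited the differences were -0.52 without RU486 and 0.32 with it, and neither passed. CG14298 was at -0.82 without RU486 and at -0.61 with it, just short of the threshold of -0.62. The other 8 lay between -0.77 and -0.63.

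The RU486-fed pair is the same genotype difference in libraries that the uninduced comparison did not use, but there the RNAi is switched on, so it is no replicate. In that pair 175 genes passed upward (1.34% of 13012) and 55 downward (0.423%), also relative to the median. Of the 32 genes higher without RU486, 14 were also higher with it, which is 43.8% of the 32 and 8.00% of the 175. Of the 16 lower genes, 2 were lower with RU486, 12.5% of the 16 and 3.64% of the 55. Among the 32, 31 were above 0 in the RU486-fed pair, against 46.8% of all genes, and 22 were as deposited, against 6.37% of all genes. Their relative median there was 0.55, beside 0.79 without RU486. The 16 lower genes had a median of -0.067 in the RU486-fed pair, beside -0.76 without RU486, and 11 of them were below 0.

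The 14 shared higher genes include 6 antimicrobial peptide genes, namely AttA, AttB, AttC, Def, Dro and Listericin. They further include w, GluRIIC and Cyp4e3 and the numbered genes CG3397, CG34227, CG4757, CG12224 and CG7296. Ranked by the smaller of the 2 differences, CG34227 came first, with 1.19 without RU486 and 1.20 with it, and CG3397 next, with 1.41 without RU486 and 1.12 with it. As deposited, 5 genes of the whole table passed upward in both pairs, and of these 14 only CG3397, CG34227, AttB and Def were among them. White, for one, had a deposited difference of 0.33 in the RU486-fed pair.

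**Figure D4:**
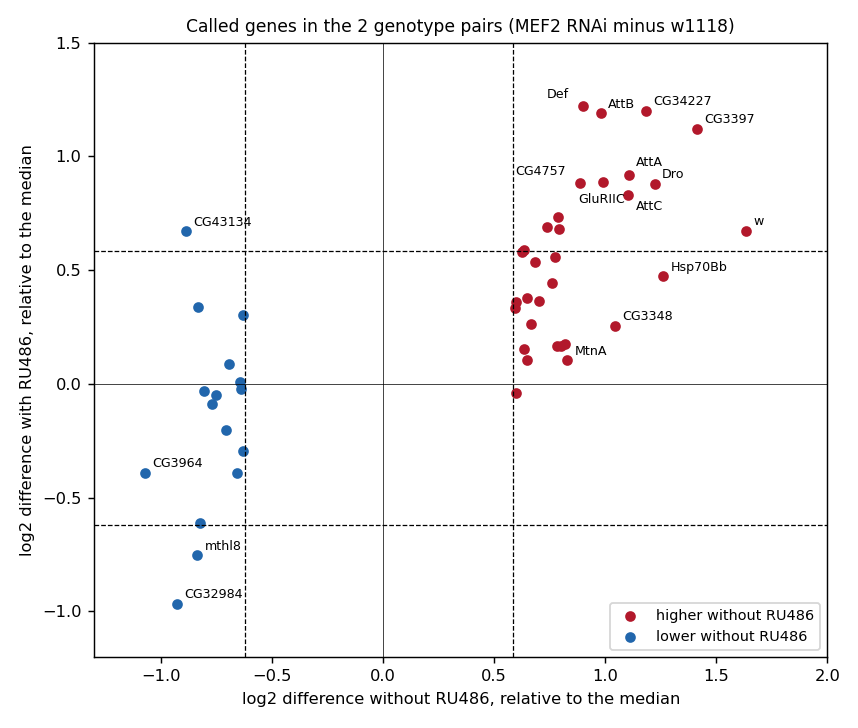
Log2 difference, MEF2 RNAi minus w1118, relative to the median of all genes, without RU486 (horizontal axis) and with RU486 (vertical axis) for the 48 called genes, 1 point each. Red points are the 32 higher and blue points the 16 lower genes, and dashed lines are the thresholds. In the upper right 14 red points pass both, in the lower left 2 blue points do, and CG43134 lies in the upper left.

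TotC, TotA, MtnA, Lsp2 and Hsp70Bb passed without RU486 and did not pass with it. In the RU486-fed pair TotC was at 0.10, TotA at 0.15, MtnA at 0.10, Lsp2 at 0.17 and Hsp70Bb at 0.47. Whether these differ between the pairs was not tested.

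Some of the called genes are neighbours. No share over all genes was computed, so the counts only describe these genes. Of the 48, 16 had another called gene within 10 kb, in 11 pairs, and in all 11 both genes went the same way. The pairs include overlapping genes and AttA with AttB, which are not separate measurements. On arm 2R the genes Dro, AttA and AttB lie in a row (14745961 to 14750165), and Listericin and CG34227 are 5931 bases apart. On arm 3R the genes CG18547, CG12224 and CG3397 lie in a row (11978574 to 11984541), with relative differences of 0.70, 0.79 and 1.41, and TotA and TotC are 1287 bases apart. On arm 2L the lower genes CG32984 and CG18088 are 499 bases apart. CG9875 and CR44168, and Lsp2 and CR11538, overlap on opposite strands. Overlap with some other annotated gene held for 17 of the 48, likewise without a share over all genes.

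By chromosome arm, the share of genes called in either direction ran from 0.144% of 2078 on X to 0.564% of 2659 on 2R, with 0 of 103 on the fourth chromosome. The higher genes numbered 11 on 2R, 11 on 3R, 4 on 2L, 4 on 3L and 2 on X. On 2R, 7 of the 11 are antimicrobial peptide genes. Arm medians of the relative difference lay between -0.0025 on the fourth chromosome and 0.020 on 2R, so no arm was offset as a whole.

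Genes of muscle structure and its regulators did not pass the threshold on the main scale. Of 33 genes of muscle structure 0 passed, with a median of 0.074 relative to all genes (0.44 as deposited), and of 17 muscle regulators 0 passed, with a median of -0.026. Mhc, the muscle myosin heavy chain, stood at 0.25 in uninduced MEF2 RNAi and -0.23 in uninduced w1118, a relative difference of 0.11. The lowest was fln, which encodes flightin of the flight muscle thick filament. It stood at -0.29 in uninduced MEF2 RNAi and -0.097 in uninduced w1118, a relative difference of -0.56, with -0.58 in the RU486-fed pair. TpnC4, the troponin C of stretch-activated flight muscle, was at -0.50, and Act88F, the actin gene whose promoter drives GeneSwitch here, was at -0.23. Between these 2 lay Zasp67, a Z-disc protein gene, at -0.43, and TpnC47D, another troponin C gene whose 4 values were all within 0.1 of 0, at -0.24. The highest member, Act42A, a cytoplasmic actin, was at 0.21, and 23 of the 33 were above 0. Relative to ribosomal protein genes fln and TpnC4 passed downward, with fln at -0.74 and a list median of -0.11, and as deposited the regulator sug passed upward at 0.64.

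Energy genes stayed near the median of all genes. Of 79 nuclear genes of oxidative phosphorylation 0 passed, with a median of -0.0095, and of 20 genes of the TCA cycle and 16 of glycolysis 0 passed, with medians of 0.025 for the TCA cycle and 0.032 for glycolysis. None of 30 genes of lipid storage and synthesis passed, with a median of 0.16 (0.53 as deposited) and fu12, an acyltransferase of phosphatidic acid synthesis, highest at 0.39. In the insulin, TOR and sugar response list only Ilp8 passed among 28, downward, against 0.123% of all genes, and the median was 0.098. Within it Thor, the translation inhibitor under FOXO, was at 0.33 and ImpL2, a secreted binder of insulin-like peptides, at 0.35.

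Of the 86 cytosolic ribosomal protein genes 0 passed. They had a median of 0.18, with quartiles of 0.17 and 0.20 and RpS19b lowest at -0.36, and in 80 of them the uninduced MEF2 RNAi library held the highest of the 4 values. Of the 37 proteasome genes 0 passed, with a median of 0.18 and Prosalpha1 at 0.58, just short of the threshold. Relative to the ribosomal protein genes the count of higher genes was 19 and that of lower genes 191, so on that scale more genes were lower than higher.

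Lists of germline, cell cycle, gut and nervous system genes had medians below that of all genes, and each was above 0 as deposited. Of 35 germline genes 0 passed, with a median of -0.29 (0.076 as deposited), and of 56 cell cycle genes 0 passed, with a median of -0.091 (0.28 as deposited). Digestive enzymes, 50 in number, had a median of -0.27 (0.099 as deposited) and 25 genes of the nervous system one of -0.062 (0.31 as deposited), with 0 passing in either. The 16 hemocyte genes, of which 0 passed, had a median of 0.12 (0.48 as deposited). In the eggshell list 6 of 20 members, in the digestive list 11 of 50 and in the germline list 0 of 35 had all 4 values within 0.1 of 0.

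**Figure D5:**
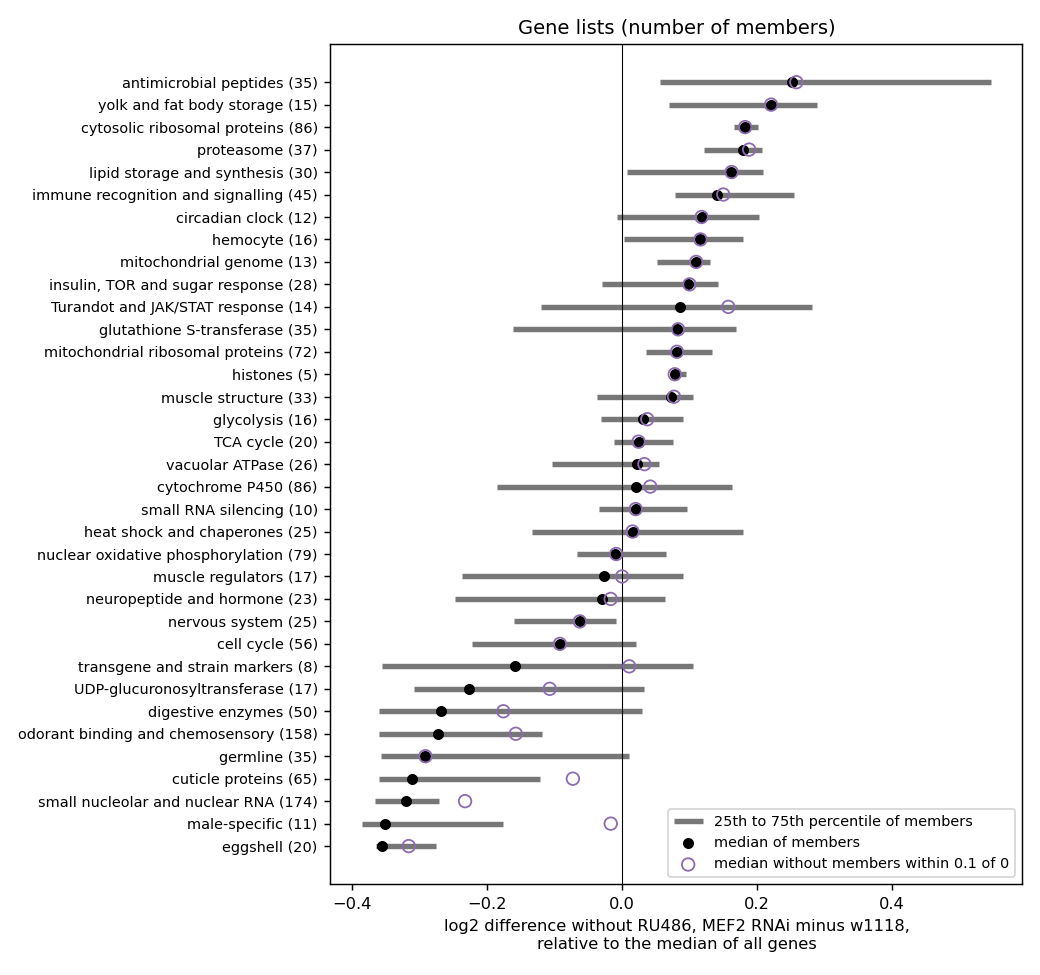
Log2 difference without RU486, MEF2 RNAi minus w1118, relative to the median of all genes (horizontal axis), for 35 gene lists with their number of members (vertical axis). Black points are list medians, grey bars run from the 25th to the 75th percentile of members, and open purple circles are medians without members whose 4 values lie within 0.1 of 0. Antimicrobial peptides have the highest median at 0.25 and the highest upper quartile, and the eggshell list the lowest at -0.36.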

How the data were processed

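Total RNA of 8 pooled thoraces per library was prepared with a TruSeq stranded total RNA kit per the labels. The table that the authors deposited holds log2 values of 13012 genes, centred so that the 4 values of each gene sum to 0. The aligner, counter, normalization and genome build are not given in the sources used here. It holds no counts, so the depth is unknown. All 4 value columns match a sample title and 0 do not. Differences are MEF2 RNAi minus w1118 after subtracting each library's median over all genes, and folds are 2 to their power. With 1 library per group no test was run.

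Named are Mef2, transgene markers, the 15 largest rises and falls past the threshold on both scales, the 10 largest in each direction past it in both pairs, and list members past it (otherwise a list's highest and lowest member). Other genes were picked with their values in view. The comparison and the 35 lists were chosen with earlier results of these data known, and the patterns for small nucleolar RNA and Ugt genes were corrected after the table was read. Names were matched to Ensembl release 115, 10792 directly and 12959 with synonyms. Alternatives were the deposited scale, other reference genes, a 2-fold threshold and leaving out genes near 0 or with shared values. Python 3.11.15, numpy 2.4.6, pandas 2.3.3 and matplotlib 3.10.9 were used, and the code was tested on simulated data.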

Additional observations from a re-analysis of the deposited data

Results flagged for a closer look

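A gene is given here if it passed the threshold in opposite directions without and with RU486, and a list of 5 or more members not near 0 if its medians in the 2 pairs had opposite signs and were each at least 0.1 from 0, relative to all genes. That held for 1 gene and 6 lists. Other lists also changed sign but fell short of these limits, among them the cell cycle list at 0.58 with RU486 and -0.091 without. In none was the difference between the pairs tested. For CG43134 the relative difference was 0.67 with RU486 and -0.89 without, a gap of 1.56. As deposited its differences were 0.32 with RU486 and -0.52 without, neither of them past the threshold.

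For the lists, medians over members not near 0 are given, and the gap is the value with RU486 minus that without, each on the relative scale. It was 0.85 for germline genes (0.56 with RU486 and -0.29 without), 0.47 for eggshell genes and 0.46 for small nucleolar and nuclear RNA. It was -0.22 for the insulin, TOR and sugar response list, -0.23 for hemocyte genes and -0.28 for the genes of the mitochondrial genome. As deposited the germline medians were 0.21 with RU486 and 0.076 without, both above 0. The deposited eggshell medians were -0.20 with RU486 and 0.052 without, and those of small nucleolar and nuclear RNA -0.11 with RU486 and 0.14 without, so these gaps turn negative there. The other 3 gaps stay negative as deposited, with medians between -0.51 and -0.46 with RU486 and between 0.47 and 0.48 without.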

How the results depend on the processing

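As deposited, 781 genes were higher and 1 lower, so 99.9% of the calls were higher, against 66.7% relative to the median of all genes. Past the threshold the same way in both pairs were then 5 higher genes and 1 lower gene, CG3964. CG32984 and mthl8, the 2 shared lower genes relative to the median, were not past it in both. Relative to ribosomal protein genes, 19 genes were higher and 191 lower (9.05% of calls higher). At a 2-fold threshold 8 genes were higher and 1 lower, with 2 higher and 0 lower in both pairs. Leaving out genes that share values or lie near 0 left 32 higher and 16 lower. Relative to the genes not near 0, a reference added after the data were seen, 28 were higher and 22 lower. These scales differ by a constant added to every difference of a pair, smaller than the thresholds, so no called gene could change direction. Relative to ribosomal protein genes 13 of the 32 higher genes lost the call, and relative to the genes not near 0, 4 did. List medians above 0 numbered 21 of 35 relative to all genes, 35 as deposited and 3 relative to ribosomal protein genes.

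No paired analysis was possible because each group has 1 library and the labels share no replicate numbers. The table holds no read counts, so which of the low or near-zero values are limited by depth was not tested.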
